A study of Homo sapiens with 12 samples.

Results

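The sestrins, DDIT4, the 4E-BPs and the other brakes of mTORC1 were followed here as a group of 10 genes: SESN1, SESN2, SESN3, DDIT4, EIF4EBP1, EIF4EBP2, DEPTOR, TSC1, TSC2 and AKT1S1. They were chosen by name as inhibitors of mTORC1 signalling or as the translation repressors it controls, and all 10 were found among the 26258 Entrez identifiers of the deposited table. RNA was sequenced from HLE cells, a human hepatocellular carcinoma line, which had received a control siRNA (siCtrl) or siRNAs that deplete YAP together with TAZ (siY/T) or deplete ATF4 (siATF4). The transfected cells were given either DMSO, the vehicle, or 5 µM of the multikinase inhibitor Sorafenib (Srf), a drug used against liver cancer, which gave 6 groups of 2 libraries, 12 in all. All groups shared the parental line and the transfection, and the siRNA was transient and left part of each target's RNA. The study's methods call its replicates biological, but nothing in the labels ties a library to a separate culture, so the p-values measure the spread between these libraries, which may be technical.

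mTORC1 is the kinase complex that drives protein synthesis and cell growth when amino acids, growth factors and energy are in supply. Sestrins bind the GATOR2 complex and pass on a shortage of leucine, DDIT4 (REDD1) acts through the TSC1-TSC2 complex, which switches off the activator RHEB, and DEPTOR and AKT1S1 (PRAS40) are inhibitory proteins bound to the kinase complex itself. The 4E-BPs sit downstream: in the unphosphorylated state they hold the cap-binding protein eIF4E away from the translation machinery, and mTORC1 releases it. SESN2 and DDIT4 are known stress genes that the transcription factor ATF4 can induce, SESN1 and SESN2 are also known p53 targets, and YAP and TAZ are the transcriptional coactivators of the Hippo pathway. RNA levels say nothing of the phosphorylation or the activity of any of these proteins.

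Between 41408348 and 53619732 reads per library lay on genes, so that 1 read stood for 0.0187 to 0.0242 CPM (reads per 1000000 reads on genes). The siRNA targets were lower in the cells they label: ATF4 stood at 248 and 249 CPM in siCtrl DMSO cells, 96.2 and 101 in siATF4 DMSO cells and 84.5 and 90.6 in siATF4 Srf cells. YAP1 was 5.34-fold lower and WWTR1, which encodes TAZ, 2.81-fold lower in siY/T DMSO than in siCtrl DMSO cells. ATF4 was also 1.55-fold lower in siY/T Srf than in siCtrl Srf cells (log2 change -0.63, limma adjusted P = 1.84e-07), and WWTR1 1.62-fold lower in siATF4 DMSO than in siCtrl DMSO cells (-0.70, adjusted P = 1.29e-05). The part of these side changes in the results below was not tested. No other siRNA condition and no rescue of a target was among the groups. Depletion below therefore names the siRNA groups. Effects of an siRNA beyond its target cannot be told apart here from loss of the target. Hepatocyte markers were nearly absent, with ALB, APOA1, APOB, TTR, HNF4A and AFP at no more than 0.117 CPM in any library and SERPINA1 between 0.0214 and 2.32 CPM, while the mesenchymal marker VIM stood between 1952 and 2916 CPM and the epithelial keratin KRT18 between 312 and 1089 CPM. The summed level of the 4 epithelial markers was 1018 to 1048 CPM in siCtrl DMSO and 715 to 742 CPM in siCtrl Srf cells, 319 to 341 CPM in the siY/T groups and 1011 to 1090 CPM in the siATF4 groups, and that of the 7 hepatocyte markers 1.28 to 2.44 CPM in the siY/T groups against 0.168 to 0.625 CPM in the siCtrl groups. The epithelial sum was mostly KRT18, since CDH1, EPCAM and KRT19 did not exceed 7.925, 0.701 and 0.5135 CPM in any library. The hepatocyte sum in siY/T cells was mostly SERPINA1. The lower epithelial and higher hepatocyte sums in siY/T cells therefore do not speak for the other markers of each list. They stood beside the siY/T changes given below, and their part in these was not tested. The leukocyte marker PTPRC and the endothelial marker PECAM1 did not exceed 0.0403 CPM. The libraries of a group differed least in siATF4 DMSO and most in siY/T DMSO cells, with an SD of their log2 difference over all genes tested of 0.110 and 0.190.

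The genes lie on 8 chromosomes, given here on GRCh37 with the Entrez identifier of the table. The sestrins are SESN1 (27244, chromosome 6), SESN2 (83667, chromosome 1) and SESN3 (143686, chromosome 11). DDIT4 (54541) spans chr10:74033678-74035794 and EIF4EBP2 (1979) chr10:72163901-72188374, both on the plus strand, and EIF4EBP1 (1978) spans chr8:37888052-37917883. DEPTOR (64798) is on chromosome 8, TSC1 (7248) on 9, TSC2 (7249) on 16 and AKT1S1 (84335) on 19. Exons of a gene on the opposite strand cover 784 bases, or 12.2%, of the TSC2 reference transcript (PKD1), 9.62% of that of DEPTOR, 4.29% of that of SESN1 and under 1% of those of SESN3 and TSC1, and 0 bases of the other 5. Whether the counting used the strand is not given in the sources used here, so reads in these stretches cannot be assigned to a strand.

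Per kilobase of reference transcript, the levels in siCtrl DMSO cells covered a wide range. EIF4EBP1 was highest, with 87.2 ± 4.39 CPM per kilobase (SD, n = 2), followed by AKT1S1 with 55.2 ± 0.438, TSC2 with 14.6 ± 0.806, EIF4EBP2 with 11.9 ± 0.302 and DDIT4 with 9.76 ± 0.467. TSC1 followed with 5.00 ± 0.0223, SESN2 with 2.76 ± 0.140 and SESN1 with 1.20 ± 0.109 CPM per kilobase. DEPTOR, with 0.108 ± 0.0188, and SESN3, with 0.0451 ± 0.00796 CPM per kilobase, closed the order, and no neighbours in it overlapped between libraries. SESN2 was thus the leading sestrin and EIF4EBP1 the higher of the 4E-BPs followed in vehicle-treated control cells.

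The promoters of SESN2, DDIT4 and EIF4EBP2 are shown because the results turn on these genes, and that of TSC2 because it held a pair of the motifs searched for. Each is 200 bases from 250 to 51 bases before a RefSeq start, plus strand, 5′ to 3′, taken from RefSeq's GRCh38.p14 table and placed on GRCh37 by exact match, at chr1:28585779-28585978, chr10:74033432-74033631, chr10:72163651-72163850 and chr16:2097736-2097935. Capitals mark CACGTG and the overlapping TGATGNAA.
SESN2: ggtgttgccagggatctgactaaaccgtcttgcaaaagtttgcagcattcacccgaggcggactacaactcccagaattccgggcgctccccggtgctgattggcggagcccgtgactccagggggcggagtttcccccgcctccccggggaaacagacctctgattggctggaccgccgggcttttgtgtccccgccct
DDIT4: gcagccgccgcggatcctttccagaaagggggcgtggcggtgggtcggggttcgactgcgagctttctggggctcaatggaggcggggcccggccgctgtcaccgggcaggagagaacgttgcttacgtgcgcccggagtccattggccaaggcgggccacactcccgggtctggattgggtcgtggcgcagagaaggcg
EIF4EBP2: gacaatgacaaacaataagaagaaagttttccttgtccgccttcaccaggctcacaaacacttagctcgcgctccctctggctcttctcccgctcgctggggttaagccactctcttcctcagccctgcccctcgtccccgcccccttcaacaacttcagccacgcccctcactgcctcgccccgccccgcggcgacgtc
TSC2: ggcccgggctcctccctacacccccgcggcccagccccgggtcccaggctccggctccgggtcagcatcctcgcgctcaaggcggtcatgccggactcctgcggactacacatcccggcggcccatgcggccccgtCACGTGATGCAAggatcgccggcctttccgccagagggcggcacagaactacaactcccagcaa
The windows searched ran from 250 bases before to 50 after each start, on both strands, and 10 of them belonged to 7 of the genes. TGATGNAA, a form of the composite element that ATF4 binds with C/EBP partners, occurred in 3.62% of all 35116 RefSeq windows of 300 bases, CACGTG, the E-box, in 7.26% and GGAATG, the core of the TEAD motif through which YAP and TAZ act, in 14.0%. The first 2 occurred together in 1 TSC2 window, where CACGTG begins at position -114 and TGATGNAA at position -110 from the start and they share letters, and GGAATG in 1 of 3 SESN1 windows, from position -223 on the minus strand. A match is a description of letters, and its absence says only that they are not in this window. GC made up 63%, 69%, 61% and 71% of the 4 printed stretches, in the order shown.

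**Figure D1:**
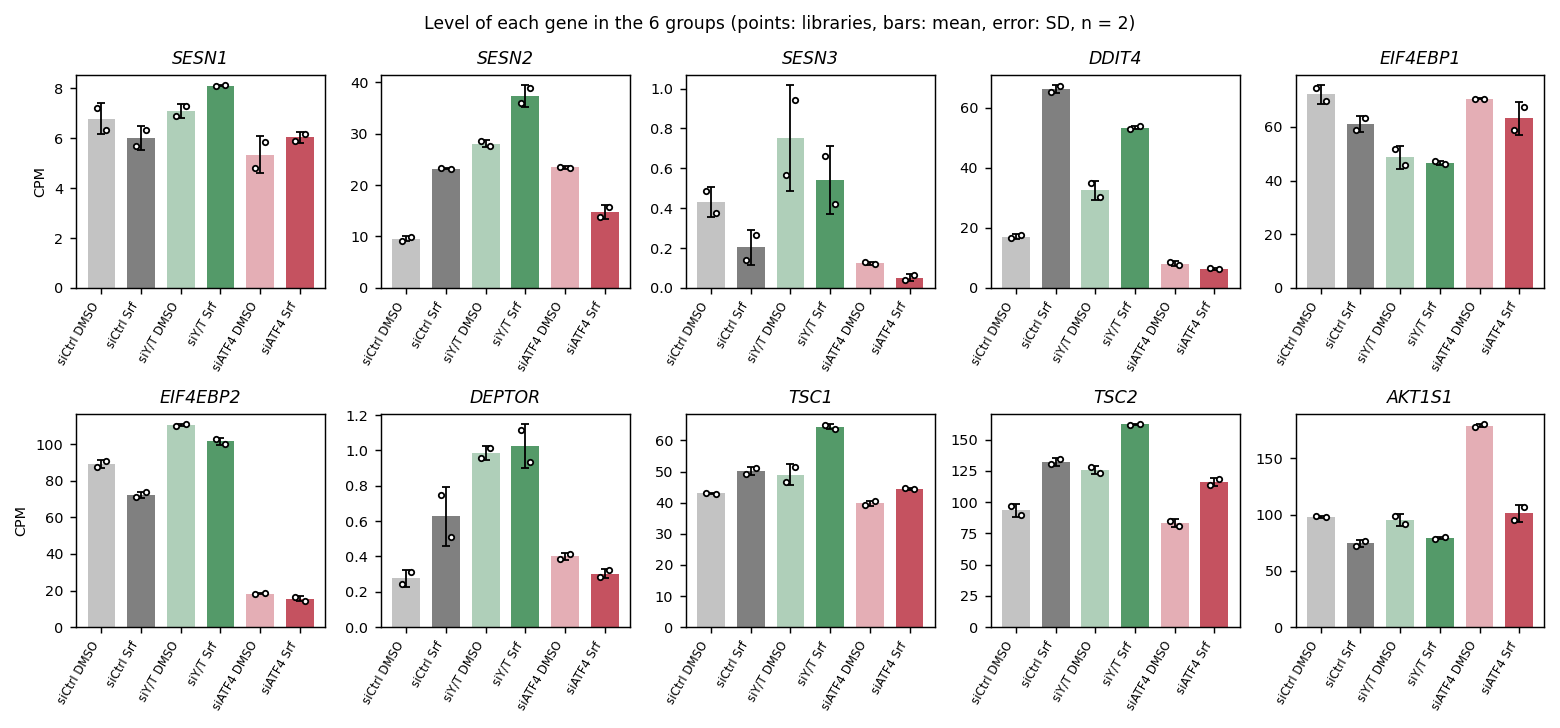
CPM of each of the 10 genes in the 6 groups, each panel with its own linear axis from 0; points are libraries, bars the mean and error bars the SD (n = 2). SESN2 and DDIT4 were lowest in different groups, siCtrl DMSO and siATF4 Srf, and EIF4EBP2 stayed between 14.6 and 18.7 CPM in the 4 siATF4 libraries against 71.3 or more elsewhere.

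A change was called where the unadjusted limma P was under 0.05 and the absolute log2 fold change at least 0.58, with the Benjamini-Hochberg adjusted P over 13515 genes beside it. Of the 10 genes, 9 passed the filter of at least 1 CPM in at least 2 libraries. SESN3 did not, and DEPTOR passed only through 1 siY/T DMSO and 1 siY/T Srf library, so that its counts below lean on the group in which it was high. The comparisons share libraries (each siCtrl group enters several), so that their lists of called genes are not independent.

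Sorafenib in control cells raised SESN2 and DDIT4, 2 of 9 genes called in either direction against 17.5% of all genes tested, and 8 of 9 had an adjusted P under 0.05 against 63.2% of all genes. The median log2 change was 0.22 over the 9 genes and 0.05 over all genes. In siY/T cells the drug raised DDIT4, 1 of 9 called (all genes 9.97%), with 5 of 9 at an adjusted P under 0.05 (all genes 52.9%). In siATF4 cells it lowered SESN2 and AKT1S1, 2 of 9 called (all genes 8.63%), with 6 of 9 at an adjusted P under 0.05 (all genes 50.4%). No gene of the group was called higher there, where the median was -0.17 over the 9 genes and 0.03 over all genes. With 9 genes, 1 gene more or fewer moves such a share past most of these backgrounds, so the counts are given as a description of the group.

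With siATF4 in DMSO, DDIT4 and EIF4EBP2 were lower and SESN2 and AKT1S1 higher, 4 of 9 called (all genes 22.7%). An adjusted P under 0.05 was reached by 6 of 9 (all genes 67.9%). With siATF4 in Sorafenib, SESN2, DDIT4 and EIF4EBP2 were lower, 3 of 9 called (all genes 28.9%). An adjusted P under 0.05 was reached there by 7 of 9 (all genes 73.2%). With siY/T in DMSO, SESN2, DDIT4 and DEPTOR were higher, 3 of 9 called (all genes 14.6%), with 7 of 9 at an adjusted P under 0.05 (all genes 60.1%). DEPTOR passed the filter only through siY/T libraries, so its place in this count leans on the filter. With siY/T in Sorafenib, SESN2 alone was called higher, 1 of 9 (all genes 9.95%), with 8 of 9 at an adjusted P under 0.05 (all genes 48.9%). The median change with siY/T was 0.31 in DMSO and 0.36 in Sorafenib over the 9 genes, against 0.07 and 0.05 over all genes.

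Set directly against siY/T cells, siATF4 DMSO cells held less DDIT4, EIF4EBP2, DEPTOR and TSC2 and more AKT1S1, 5 of 9 called (all genes 35.7%), and all 9 had an adjusted P under 0.05 (all genes 77.3%). In Sorafenib, SESN2, DDIT4, EIF4EBP2 and DEPTOR were lower in siATF4 cells, 4 of 9 called (all genes 38.5%), and again all 9 had an adjusted P under 0.05 (all genes 78.8%). Quantile normalization moved the median over all genes from -0.06 to 0.07 in both of these comparisons. Among the calls, that of DEPTOR was lost under it in both, and that of TSC2 in DMSO under it and under 3 other scalings or tools, with -0.52 to -0.55. DEPTOR was tested only through siY/T libraries, so its place in both counts leans on the filter.

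**Figure D2:**
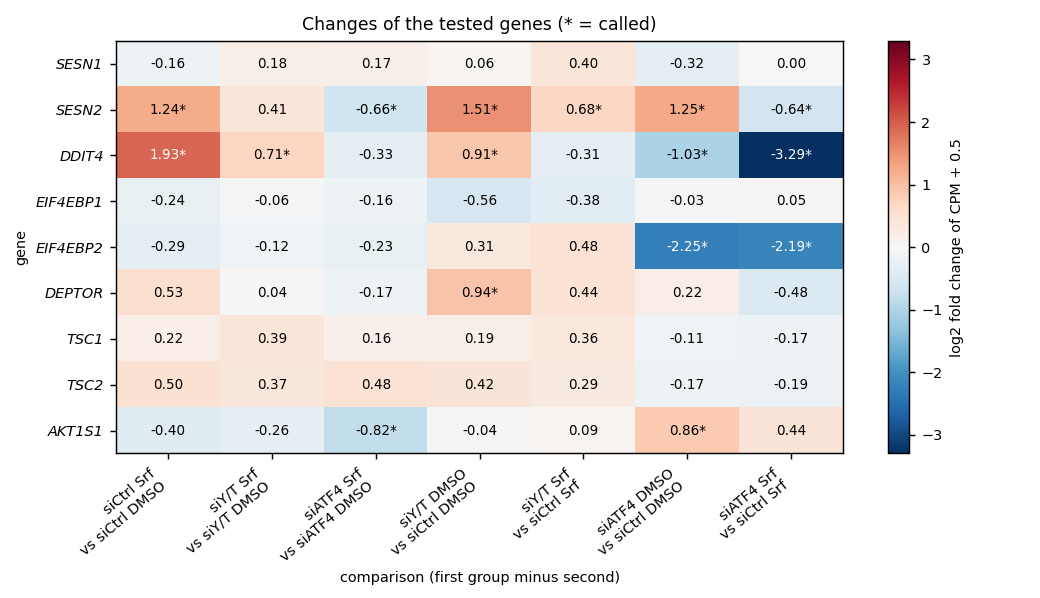
Log2 fold changes of CPM + 0.5 for the 9 tested genes (rows) in the 7 comparisons of the drug or of an siRNA (columns), first group minus second; an asterisk marks a called change. DDIT4 spans the widest range, from 1.93 for Sorafenib in siCtrl cells to -3.29 for siATF4 in Sorafenib.

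SESN2, a leucine sensor among the sestrins, stood at 9.21 and 9.90 CPM in siCtrl DMSO cells and at 23.2 and 23.1 CPM in siCtrl Srf cells. Sorafenib thus raised it 2.42-fold in control cells (log2 change 1.24 ± 0.07, SE; adjusted P = 2.13e-08). Both depletions raised it without the drug, to 28.6 and 27.6 CPM in siY/T DMSO cells and 23.6 and 23.3 CPM in siATF4 DMSO cells, none of which overlapped with siCtrl DMSO. These were increases of 2.94-fold with siY/T (1.51 ± 0.07, adjusted P = 5.22e-09) and of 2.45-fold with siATF4 (1.25 ± 0.07, adjusted P = 6.65e-09).

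In Sorafenib the depletions parted. SESN2 stood at 35.9 and 38.9 CPM in siY/T Srf cells, the highest of all groups, and at 13.7 and 15.7 CPM in siATF4 Srf cells. Against siCtrl Srf cells it was 1.61-fold higher with siY/T (0.68, adjusted P = 6.09e-06) and 1.58-fold lower with siATF4 (-0.64, adjusted P = 2.77e-06). Within siATF4 cells Sorafenib lowered SESN2 1.59-fold (-0.66, adjusted P = 9.44e-06), the opposite direction to control cells. Without siATF4 Srf replicate 1 these last 2 changes were -0.55 and -0.57, short of the 0.58 needed for a call, with adjusted P of 6.99e-05 and 0.000251. Within siY/T cells the drug's change of SESN2 was 0.41 ± 0.07, short of a call (adjusted P = 0.000406).

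The effect of Sorafenib on SESN2 was therefore smaller by 1.89 ± 0.10 on the log2 scale in siATF4 than in siCtrl cells (interaction -1.89, adjusted P = 2.30e-07) and by 0.83 ± 0.10 in siY/T cells (interaction -0.83, adjusted P = 0.000251). Interactions were called at an adjusted P under 0.05. With siATF4, those of SESN2, DDIT4, DEPTOR and AKT1S1 were called, 4 of 9 against 41.1% of all genes. With siY/T, those of SESN2 and DDIT4 were called, 2 of 9 against 22.0% of all genes. All 6 were negative.

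**Figure D3:**
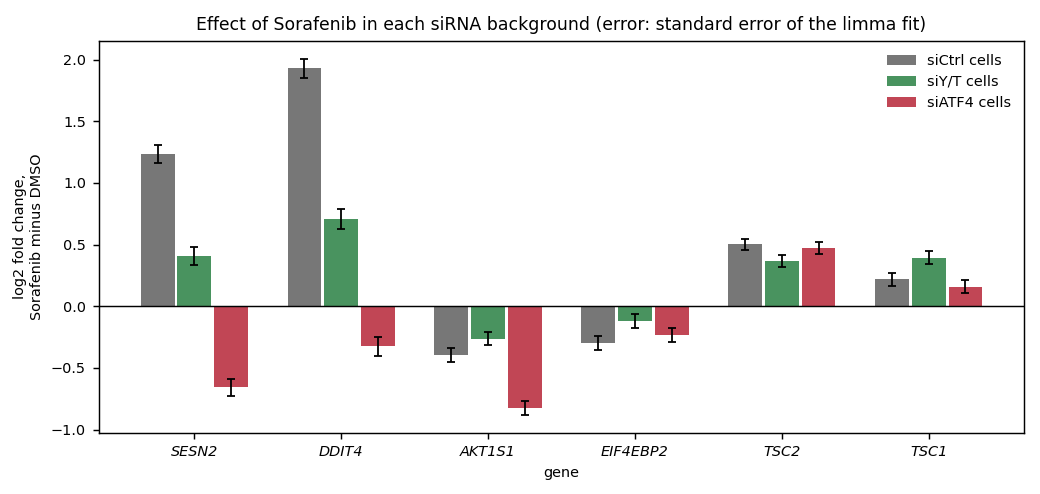
Log2 fold change of Sorafenib against DMSO (vertical axis) for 6 genes in siCtrl, siY/T and siATF4 cells; bars are limma estimates and error bars their standard errors. SESN2 and DDIT4 had bars above 0 with siCtrl and siY/T and below 0 with siATF4, and the TSC2 bars lay between 0.37 and 0.50 in all 3.

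DDIT4, the hypoxia and stress gene upstream of the TSC complex, had 16.5 and 17.6 CPM in siCtrl DMSO cells and 65.4 and 67.3 CPM in siCtrl Srf cells. Its rise of 3.89-fold (1.93 ± 0.08, adjusted P = 2.63e-09) was the largest of the group with the drug. In siY/T cells it stood at 34.8 and 30.3 CPM with DMSO and at 53.1 and 53.8 CPM with Sorafenib. YAP and TAZ depletion thus raised DDIT4 1.91-fold in DMSO (0.91, adjusted P = 7.32e-07), and Sorafenib added 1.64-fold to it (0.71, adjusted P = 1.18e-05). With Sorafenib, siY/T cells lay below siCtrl cells without overlap, by a log2 change of -0.31 that was not called (adjusted P = 0.00617).

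In siATF4 cells DDIT4 was low throughout, with 8.68 and 7.53 CPM in DMSO and 6.56 and 6.14 CPM in Sorafenib. It fell 2.11-fold with siATF4 in DMSO (-1.03 ± 0.08, adjusted P = 1.20e-07) and 10.4-fold in Sorafenib (-3.29 ± 0.08, adjusted P = 7.48e-12). The drug's own change in siATF4 cells was -0.33 ± 0.08, not called (adjusted P = 0.00441). The interaction was -2.25 ± 0.11 with siATF4 (adjusted P = 2.13e-07) and -1.22 ± 0.11 with siY/T (adjusted P = 4.92e-05). SESN2 and DDIT4, both called higher with Sorafenib in siCtrl cells and with siY/T in DMSO, thus moved in opposite directions with siATF4 in DMSO and in the same direction with siATF4 in Sorafenib.

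The other sestrins were scarce. SESN1 ranged from 4.82 CPM in a siATF4 DMSO library to 8.14 CPM in a siY/T Srf library, and none of its changes was called. Its change with the largest value was 0.40 ± 0.10 for siY/T in Sorafenib (adjusted P = 0.00486), where both siY/T libraries lay above both siCtrl libraries. SESN3 was seen in 2 to 39 reads per library. It had 26 and 17 reads with siCtrl in DMSO, 7 and 13 in siCtrl Srf, 29 and 39 in siY/T DMSO, 31 and 18 in siY/T Srf, 6 and 6 in siATF4 DMSO and 2 and 3 in siATF4 Srf cells. In a fit with no filter, SESN3 was lower in siATF4 than in siY/T cells by 0.99 in DMSO and 0.91 in Sorafenib on the log2 scale with 0.5 CPM added (adjusted P = 0.000375 and 0.000618), and no other change of it was called. In that fit its change was -0.576 with siATF4 in DMSO (adjusted P = 0.0126) and 0.564 with siY/T in Sorafenib (adjusted P = 0.0204). Both were just short of the 0.58 needed for a call. The change of SESN3 with Sorafenib in siCtrl cells was -0.41 (adjusted P = 0.0600). At these levels the added 0.5 CPM holds fold changes down.

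The 4E-BPs differed from each other. EIF4EBP2 stood at 87.3 and 90.5 CPM in siCtrl DMSO cells and at 18.0 and 18.7 CPM in siATF4 DMSO cells, a fall of 4.85-fold (-2.25 ± 0.06, adjusted P = 7.25e-12). With Sorafenib it stood at 71.3 and 73.6 CPM in siCtrl cells and at 16.5 and 14.6 CPM in siATF4 cells, a fall of 4.66-fold (-2.19 ± 0.06, adjusted P = 1.10e-11). The fall was thus of like size with and without the drug, and the interaction was 0.06 ± 0.08 (adjusted P = 0.570). In siY/T cells EIF4EBP2 stood at 110 and 111 CPM with DMSO and at 103 and 100.2 CPM with Sorafenib, above siCtrl cells in both conditions, by 0.31 and 0.48 on the log2 scale, neither of which was called. Sorafenib itself changed it by -0.29, -0.12 and -0.23 in siCtrl, siY/T and siATF4 cells, also without a call.

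EIF4EBP1, in contrast, was close to level between siCtrl and siATF4 cells. It stood at 74.7 and 69.5 CPM in siCtrl DMSO and at 70.6 and 70.4 CPM in siATF4 DMSO cells, a log2 change of -0.03 ± 0.07 (adjusted P = 0.715), with libraries that overlapped. The lowest group of EIF4EBP1 was siY/T, with 51.7 and 45.6 CPM in DMSO and 47.2 and 46.1 CPM in Sorafenib. The siY/T change in DMSO was -0.56 ± 0.07 (adjusted P = 2.09e-05), just short of the 0.58 needed for a call, and it passed under TMM scaling, quantile normalization, edgeR and DESeq2 with -0.61 to -0.64. In Sorafenib it was -0.38 ± 0.07 (adjusted P = 0.000732). EIF4EBP1 and EIF4EBP2 thus had their lowest levels in different depletions.

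AKT1S1, a substrate of AKT that inhibits the complex through the subunit RPTOR, stood at 98.6 and 97.5 CPM in siCtrl DMSO cells and at 178 and 180 CPM in siATF4 DMSO cells. It was thus 1.83-fold higher with siATF4 in DMSO (0.86 ± 0.06, adjusted P = 1.99e-08). Sorafenib brought it to 95.5 and 106 CPM in siATF4 cells, a fall of 1.77-fold (-0.82 ± 0.06, adjusted P = 1.51e-07). In control cells the drug's change was -0.40 ± 0.06 to 72.4 and 76.4 CPM, without a call (adjusted P = 3.83e-05), and the interaction was -0.43 ± 0.08 (adjusted P = 0.000892). In siY/T cells AKT1S1 stood at 98.7 and 91.7 CPM in DMSO, overlapping with siCtrl cells, and at 78.7 and 79.9 CPM in Sorafenib, with siY/T changes of -0.04 and 0.09.

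DEPTOR was seen in 13 to 52 reads per library. It had 13 and 14 reads with siCtrl in DMSO, 37 and 25 in siCtrl Srf, 49 and 42 in siY/T DMSO, 52 and 40 in siY/T Srf, 18 and 21 in siATF4 DMSO and 15 and 15 in siATF4 Srf cells. The siY/T libraries were thus the highest, and siCtrl DMSO and siATF4 Srf cells the lowest. DEPTOR passed the filter only through 1 siY/T DMSO and 1 siY/T Srf library. Its called changes that involve siY/T therefore lean on that filter and are given as a description. These were 0.94 ± 0.14 for siY/T in DMSO and, against siY/T cells, -0.72 in DMSO and -0.92 in Sorafenib for siATF4. The interaction of siATF4 and Sorafenib was -0.70 ± 0.20 (adjusted P = 0.0124), and it lost its call without siCtrl Srf replicate 1, at -0.55, and in DESeq2, at -1.59. Sorafenib's change in siCtrl cells was 0.53 ± 0.14 and not called. It was 0.94 with 0.1 CPM added in place of 0.5 and 1.16 in edgeR on whole reads, where it was called, so that the size of any DEPTOR change depends on the scale.

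TSC2, the part of the TSC complex that acts on RHEB, stood at 97.2 and 89.9 CPM in siCtrl DMSO and at 130 and 135 CPM in siCtrl Srf cells, a log2 change of 0.50 ± 0.05 (adjusted P = 1.44e-06). The change was 0.37 in siY/T cells, from 128 and 123 to 162 and 162 CPM, and 0.48 in siATF4 cells, from 85.4 and 81.2 to 114 and 118 CPM. In all 3 backgrounds the Sorafenib libraries of TSC2 lay above the DMSO libraries, and in none was the change called, since each was under 0.58. The interactions were -0.03 ± 0.07 with siATF4 and -0.13 ± 0.07 with siY/T, neither called. TSC2 was higher in siY/T than in siCtrl cells by 0.42 in DMSO and 0.29 in Sorafenib, while the changes with siATF4 were -0.17 and -0.19, again without a call. Against siY/T cells, siATF4 cells had -0.59 in DMSO, which was called (adjusted P = 9.72e-08), and -0.48 in Sorafenib, which was not.

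TSC1, which stabilizes TSC2, had the same order of groups by mean CPM. It stood at 43.1 and 42.8 CPM in siCtrl DMSO, 49.3 and 51.1 in siCtrl Srf, 46.7 and 51.3 in siY/T DMSO, 65.0 and 63.8 in siY/T Srf, 39.2 and 40.4 in siATF4 DMSO and 44.6 and 44.3 in siATF4 Srf cells. No change of TSC1 was called. Those with the largest values were 0.39 ± 0.05 for Sorafenib in siY/T cells (adjusted P = 4.68e-05) and -0.53 ± 0.05 for siATF4 against siY/T in Sorafenib (adjusted P = 5.90e-07).

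Over the 12 libraries, which share their groups, the log2 levels of TSC1 and TSC2 had a Pearson r of 0.92, the highest of the 36 pairs among the 9 tested genes. The lowest was -0.90 between DEPTOR and EIF4EBP1, the genes with their highest and their lowest levels in siY/T cells. SESN2 and DDIT4 had 0.54 and EIF4EBP1 and EIF4EBP2 -0.54. Among the 11152 genes that averaged 5 CPM or more, the pattern of SESN2 was most like those of BTG1 (r = 0.98), C1orf122 and TOM1, that of DDIT4 like NUDT18, ZBTB42 and SPECC1 (0.99, 0.99 and 0.99), that of EIF4EBP2 like TRIM62, PSMD5 and HOXC8 (0.99 each), and that of AKT1S1 like PRR13 (0.98), RHOG and TMEM156. TSC2 was most like DHTKD1, C1orf216 and DALRD3 (0.99 each), TSC1 like PPP1R9A, PCDHAC1 and PCDHA9 (0.98 each, the last 2 of a cluster with shared exons), EIF4EBP1 like IPO4 (0.97), RPL35 and MAP3K14, SESN1 like CDK13 (0.89), ZFHX4 and BMPR1A, and DEPTOR like BTBD9 (0.97), TRIB1 and HCAR1. With 6 groups behind the 12 points, such values describe the order of the groups.

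Of 54 other genes of the pathway, listed by their place in it, 53 were tested. With Sorafenib in siCtrl cells 6 were called higher and 3 lower, with Sorafenib in siY/T cells 5 and 0, and with Sorafenib in siATF4 cells 0 and 3. With siATF4 6 were called higher and 3 lower in DMSO and 8 and 7 in Sorafenib, and with siY/T 4 and 0 in DMSO and 3 and 1 in Sorafenib. These shares lie near or under those of all genes given above for the same comparisons, and their median log2 changes stayed between 0.06 and 0.18, against -0.01 to 0.07 over all genes.

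**Figure D4:**
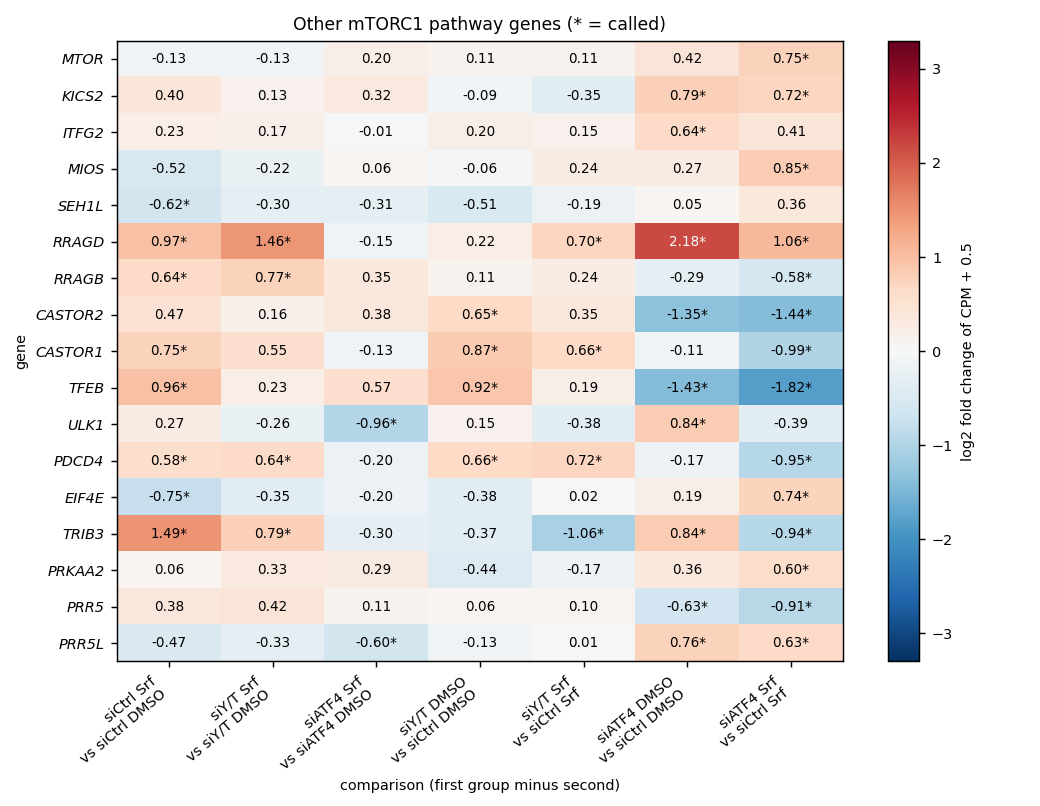
Log2 fold changes of CPM + 0.5 for 17 other mTORC1 pathway genes (rows), in the same 7 comparisons (columns) as the members; an asterisk marks a called change. RRAGD was called higher in 5 of the 7 comparisons, and TFEB ranged from 0.96 with Sorafenib in siCtrl cells to -1.82 with siATF4 in Sorafenib.

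Of the kinase core, MTOR was called with siATF4 in Sorafenib (0.75), with 233 and 238 CPM in siCtrl Srf and 396 and 399 CPM in siATF4 Srf cells (adjusted P = 1.53e-09). It was the 1 gene of that list of 4 to be called with the drug or with either siRNA against siCtrl. GATOR1 and KICSTOR, which restrain the Rag GTPases, had 2 of 7 genes called higher with siATF4 in DMSO (all genes called in either direction 22.7%). These were KICS2 (0.79) and ITFG2 (0.64), and KICS2 was called higher again in Sorafenib (0.72). GATOR2, the complex sestrins bind, had SEH1L called lower with Sorafenib in siCtrl cells (-0.62) and MIOS higher with siATF4 in Sorafenib (0.85). The Rag GTPases, Ragulator and folliculin bring mTORC1 to the lysosome, and 12 of their genes were listed. Among these, Sorafenib raised RRAGD by 0.97 in the control background and by 1.46 in the siY/T background. Against siCtrl, RRAGD was higher with siATF4 in DMSO (2.18) and in Sorafenib (1.06). Its change with siY/T against siCtrl was 0.22 in DMSO, not called, and 0.70 in Sorafenib, which was called. RRAGD levels were low, 0.280 and 0.355 CPM with siCtrl in DMSO against 3.60 and 2.85 CPM with siATF4. RRAGB rose with Sorafenib in siCtrl and siY/T cells (0.64 and 0.77).

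The arginine sensor CASTOR1 and its relative CASTOR2 were called in the same direction as DDIT4 with siY/T in DMSO (0.87 and 0.65) and with siATF4 in Sorafenib (-0.99 and -1.44). CASTOR2 stood at 7.70 and 7.28 CPM in siCtrl DMSO and at 2.64 and 2.61 CPM in siATF4 DMSO cells, a fall of 1.35 on the log2 scale. Among 12 substrates and cap-binding genes, TFEB, a transcription factor of lysosome genes that mTORC1 holds in the cytoplasm, stood at 17.6 and 17.2 CPM in siCtrl DMSO, 33.9 and 34.9 in siCtrl Srf, 34.6 and 32.4 in siY/T DMSO, 6.19 and 6.14 in siATF4 DMSO and 9.12 and 9.63 in siATF4 Srf cells. It rose with Sorafenib (0.96) and with siY/T in DMSO (0.92), and fell with siATF4 in DMSO (-1.43) and in Sorafenib (-1.82). ULK1, the kinase that starts autophagy, rose with siATF4 in DMSO (0.84) and fell with Sorafenib in siATF4 cells (-0.96), as AKT1S1 did. EIF4E, the protein the 4E-BPs hold, fell with Sorafenib in siCtrl cells (-0.75), from 21.9 and 21.4 to 12.5 and 12.8 CPM. PDCD4, an inhibitor of the helicase eIF4A, fell with siATF4 in Sorafenib (-0.95), to 23.8 and 22.8 CPM. Its libraries were higher with Sorafenib in siCtrl cells, from 29.3 and 31.1 to 49.2 and 42.1 CPM. They were also higher with siY/T, at 43.7 and 52.8 CPM in DMSO and 72.4 and 78.1 CPM in Sorafenib.

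Of the other brakes, TRIB3, a pseudokinase that binds AKT and a known target of ATF4 and CHOP, stood at 44.1 and 38.5 CPM in siCtrl DMSO, 112 and 121 in siCtrl Srf, 70.5 and 78.0 in siATF4 DMSO and 57.8 and 62.9 CPM in siATF4 Srf cells. Like SESN2, TRIB3 rose with Sorafenib in siCtrl cells (1.49) and with siATF4 in DMSO (0.84) and fell with siATF4 in Sorafenib (-0.94). Unlike SESN2, it fell with siY/T in Sorafenib (-1.06). In the ATF4-CHOP arm, a list of 6 that holds ATF4 itself, Sorafenib raised 4 in control cells (all genes called in either direction 17.5%), 4 after siY/T (9.97%) and 0 after siATF4 (8.63%). Against siCtrl cells, siY/T had 2 called lower in DMSO (14.6%) and all 6 in Sorafenib (9.95%), with 0 higher in both. The siATF4 depletion had 4 called lower and 1 higher in DMSO (22.7%), and 5 lower and 0 higher in Sorafenib (28.9%). CHAC1, a glutathione-degrading enzyme, fell with siATF4 in Sorafenib (-2.76), and ASNS, asparagine synthetase, by 1.91 on the log2 scale. DDIT3, which encodes CHOP, was the 1 gene of this list that rose with siATF4 in DMSO (2.04), from 26.2 and 25.3 to 108 and 107 CPM, the comparison in which SESN2 and TRIB3 were also called higher.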

How the data were processed

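RNA of 12 libraries, 2 in each of 6 groups of HLE cells, was sequenced from poly(A)-enriched stranded libraries. The labels give 5 µM Sorafenib and no time, and name a NextSeq instrument. The study's methods and legends differ from them, with a slightly higher dose, a stated time, a HiSeq instrument and more replicates, described as biological, than the libraries analysed here, and the labels were followed. STAR was the authors' aligner, with hg19 as the genome and unique hits kept; QuasR counted over RefSeq mRNA exons, and the authors deposited CPM per Entrez identifier, 1000000 per library in all. Within a tolerance of 0.001 read, 100% of the values were whole multiples of 1 read, so whole reads were recovered. No test of the authors was used.

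Groups were taken from the labels. Symbols were matched to Entrez identifiers through a RefSeq table, which named 26111 of 26258, and positions and reference transcripts (MANE Select, for DDIT4 the APPRIS principal) through GENCODE lifted to GRCh37. The model was limma 3.58.1 (R 4.3.3) on log2(CPM + 0.5), fitted to all 12 libraries at once with a mean per group and a mean-variance trend. It took in the 13515 genes that reached 1 CPM in 2 or more libraries. Fold changes are on that scale, which understates those of low genes, while ratios in folds are of mean CPM. The study's thresholds decided calls, a two-sided P below 0.05 without adjustment together with a log2 change of 0.58 or more either way, and interactions at a Benjamini-Hochberg adjusted P under 0.05. The study ran edgeR, whose counts were recovered here for an alternative.

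The members and lists were chosen with earlier results of these data known. All 10 members are named, with the siRNA targets, up to 4 genes per list called with an adjusted P under 0.05 in a comparison of the drug or of 1 siRNA, by largest change, and for each member the 3 genes averaging 5 CPM or more whose r was highest. Alternatives were pseudocounts of 0.1 and 1, no filter and a filter at 5 CPM, TMM and quantile scaling, a replicate block, a fit to the compared groups alone, whole reads in edgeR 4.0.16 or in DESeq2 1.42.0, other thresholds, and leaving out each library. On simulated reads for Sorafenib in siCtrl cells over 13205 genes, 200 of them were changed by 1.5 on the log2 scale. At an adjusted P under 0.05 and a log2 change of at least 0.58, limma, edgeR and DESeq2 each found all 200 and 0 others. The simulation used a single spread for all genes and changed only genes above 5 CPM. Its result is therefore not an error rate for the calls reported. Replicates of every group differed by more than sampling noise, and none was counted as a duplicate. Figures were drawn with matplotlib 3.10.9 in Python 3.11.15.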

Additional observations from a re-analysis of the deposited data

Results flagged for a closer look

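For 6 results the effect of Sorafenib differed between the siRNA backgrounds by the limma test of the difference itself, at an adjusted P under 0.05 over all genes tested. In siATF4 against siCtrl cells the drug's effect on the log2 scale differed by -1.89 for SESN2, -2.25 for DDIT4, -0.70 for DEPTOR and -0.43 for AKT1S1. In siY/T against siCtrl cells it differed by -0.83 for SESN2 and -1.22 for DDIT4. All 6 differences were negative. SESN2 was called higher with the drug in siCtrl cells and lower in siATF4 cells, and DDIT4 was called higher in siCtrl and in siY/T cells and not called in siATF4 cells. DEPTOR rested on 13 to 52 reads per library. The siCtrl libraries are shared by both tests, and causes were not tested.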

How the results depend on the processing

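Of 2167 values of the 9 tested genes under 22 alternative settings, 2124 stayed on the same side of the threshold as reported, 30 newly passed it, 13 no longer passed it and 0 called changes turned direction. Calls that were lost are those given above for SESN2, DEPTOR and TSC2, with DEPTOR also lost for siATF4 against siY/T in DMSO with 1 CPM added (-0.50) and under quantile normalization (-0.17), as in Sorafenib (-0.40). TSC2 in that DMSO comparison was also lost without siY/T DMSO replicate 1 (-0.57) and without siATF4 DMSO replicate 2 (-0.55). The uncalled DEPTOR change with siATF4 in Sorafenib was -0.48 as reported, 0.10 under quantile normalization and -1.05 in DESeq2, where it was called. Quantile normalization also brought the interactions of SESN1 past the threshold, at 0.47 with siATF4 and 0.49 with siY/T. With an adjusted P under 0.05 and no minimum change, Sorafenib had 8, 5 and 6 of 9 called in siCtrl, siY/T and siATF4 cells. The shares of all genes were 63.2%, 52.9% and 50.4%. With siATF4 the counts were 6 in DMSO and 7 in Sorafenib (all genes 67.9% and 73.2%). With siY/T they were 7 and 8 (all genes 60.1% and 48.9%), and for siATF4 against siY/T 9 and 9 (77.3% and 78.8%). For siY/T in Sorafenib 2 were called with 0.1 CPM added and 2 in edgeR. With each library left out in turn, the count ranged from 1 to 2 for siY/T in Sorafenib (2 without siCtrl Srf replicate 1) and from 1 to 2 for Sorafenib in siATF4 cells (1 without siATF4 Srf replicate 1).

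Quantile normalization moved the share of lower genes among all called genes from 29.5% to 47.7% for Sorafenib in siCtrl cells, 41.5% to 53.1% in siY/T cells and 34.2% to 45.3% in siATF4 cells. It moved that share from 64.6% to 51.5% for siATF4 in Sorafenib, from 24.7% to 43.0% for siY/T in DMSO, and from 63.7% to 48.4% and 61.5% to 48.5% for siATF4 against siY/T in DMSO and Sorafenib. For siY/T in DMSO it was 35.8% in DESeq2. The count of all genes with an interaction of siY/T and Sorafenib was 2978, and without 1 library it reached from 1581 (siCtrl DMSO replicate 2) to 4575 (siY/T DMSO replicate 2), with 1623 without siCtrl Srf replicate 2 and 1949 without siY/T Srf replicate 1.

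The labels do not say that a replicate number marks a shared culture or day. The differences between replicates 1 and 2 correlated between groups of the same treatment with r from 0.04 to 0.19, above 0 in all 6 pairs of groups and over 0.1 in 4, and between groups of different treatment with r from -0.28 to 0.01, below 0 in 8 of 9. The numbers were therefore not taken as pairs across the groups. With the replicate number as a block, the counts of called genes among the 9 were 2, 1 and 2 for Sorafenib in siCtrl, siY/T and siATF4 cells, 4 and 3 for siATF4 and 3 and 1 for siY/T in DMSO and Sorafenib, 5 and 4 for siATF4 against siY/T, and 4 and 2 for the interactions, each the same count as without it. Of all genes, 2814 had a siY/T interaction under the block against 2978. The block was 1 term for all 12 libraries, so shifts of opposite sign in DMSO and Sorafenib largely cancel in it. Its counts therefore do not test a pairing within a treatment. With 2 libraries a group, all groups share 1 estimate of the spread, and the lone library of a group with 1 left out is assumed to vary like the others. SESN3 and DEPTOR are limited by their few reads, and 1 read stood for up to 0.0242 CPM.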

Other observations

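SESN1 and SESN2 are known p53 targets, and 8 other p53 targets were followed beside them. Sorafenib in siCtrl cells had 3 called higher and 1 lower (all genes called in either direction 17.5%). Its comparison after siY/T had 0 higher and 1 lower (9.97%), and so did that after siATF4 (8.63%). The siY/T depletion had 3 and 0 in DMSO (14.6%) and 0 and 0 in Sorafenib (9.95%), and the siATF4 depletion 1 and 0 in DMSO (22.7%) and 1 and 3 in Sorafenib (28.9%). CDKN1A, the cell cycle inhibitor p21, stood at 15.6 and 15.2 CPM in siCtrl DMSO, 6.81 and 7.59 in siCtrl Srf, 107 and 97.6 in siATF4 DMSO and 37.2 and 39.6 CPM in siATF4 Srf cells. It was thus higher in every siATF4 library than in any siCtrl library. BBC3, which encodes the apoptosis inducer PUMA, stood at 3.15 and 3.24 CPM in siCtrl DMSO and at 7.30 and 7.57 CPM in siCtrl Srf cells. TP53I3, a quinone oxidoreductase, fell with siATF4 in Sorafenib (-1.22), and FDXR, ferredoxin reductase, fell by 1.11 on the log2 scale. The list thus held genes that moved in both directions with siATF4.

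Of 4 subunits found in mTORC2 and not in mTORC1, PRR5 fell with siATF4 in DMSO (-0.63) and in Sorafenib (-0.91), and its relative PRR5L rose in both (0.76 and 0.63). PRKAA2, a catalytic subunit of the energy sensor AMPK, was called higher with siATF4 in Sorafenib (0.60).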
